A study of Homo sapiens with 6 samples.

Results

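The transforming growth factor-β (TGF-β) core described here consists of 10 genes: the ligand genes TGFB1, TGFB2 and TGFB3, the receptor genes TGFBR1, TGFBR2 and TGFBR3, and the intracellular mediators SMAD2, SMAD3, SMAD4 and SMAD7. They were chosen by name, as the rows of the read-count table that carry these symbols, and each symbol had 1 row. These are 10 of the 58395 genes counted, and 8 of them were among the 16778 genes with enough reads to be tested. The libraries come from SH-SY5Y, a human neuroblastoma cell line that is used as a model of neurons. Cells labelled SH_tau received a pcDNA3.1 plasmid that encodes Tau, the microtubule-associated protein of the 0N4R isoform, and cells labelled SH_ctrl received the empty pcDNA3.1 plasmid, with 3 libraries in each group. All cells of both groups were differentiated after the transfection, by 10 µM retinoic acid over 5 days and then 50 ng/mL of the neurotrophin BDNF over 15 days in medium without serum. The question of the comparison was whether the transcripts of this pathway differ in level between cells given the Tau plasmid and cells given the empty vector. Cells were transfected before differentiation, and the sources used here do not state whether transfected cells were selected, what share of the cells carried the plasmid or whether the replicates are separate cultures, so p-values measure the spread between these libraries only. In bulk RNA, fewer cells of a type and less RNA per cell cannot be told apart.

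TGF-β ligands are secreted in a latent complex and, once released, bind the type II receptor TGFBR2, which phosphorylates the type I receptor TGFBR1. TGFBR3, or betaglycan, is a co-receptor that presents ligand and is needed most for TGFB2. Activated TGFBR1 phosphorylates SMAD2 and SMAD3, which join SMAD4 and enter the nucleus to regulate genes, and SMAD7 is an inhibitory SMAD that the pathway itself induces. In the nervous system TGF-β signalling is known for its effects on neuronal survival, on axon formation and on glial responses.

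The transcript of Tau itself, MAPT, passed no threshold between the labelled groups. It had 34.6, 32.6 and 34.6 CPM (reads scaled to library size after TMM) in the libraries labelled SH_tau, against 34.8, 51.9 and 41.5 CPM in those labelled SH_ctrl, and the log2 fold change was -0.33 (SE 0.18, FDR = 0.239). Whether reads of the plasmid's coding sequence were counted for MAPT was not tested and the study's protein blots of Tau were not analysed here, so every direction below is that of the libraries labelled SH_tau against those labelled SH_ctrl. Library totals ran from 27945481 to 31687213 reads in SH_tau and from 28212396 to 31706415 reads in SH_ctrl. Mitochondrially encoded genes took 45.8 to 57.8% of the reads in SH_tau and 30.5 to 45.6% in SH_ctrl. The fold change moved with the GC content of the exons, with a median log2 fold change of -0.35 over 2665 genes under 40% GC and of 0.34 over 2155 genes over 60% GC, against -0.03 over all genes. Of 8 noradrenergic neuroblastoma markers 7 were tested, with summed levels of 1358 to 1458 CPM in SH_tau and 1457 to 1796 CPM in SH_ctrl, while TH had 3 to 25 reads. Of 8 glial and fibroblast markers 3 were tested, summing to 28.7 to 41.6 CPM in SH_tau and 21.4 to 29.3 CPM in SH_ctrl, and GFAP, AIF1 and PECAM1 were at 0 reads in all 6 libraries. PDGFRB, a pericyte and fibroblast receptor, was the marker of that list that passed as higher, and the part of other cells in the results below was not tested.

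A gene was called where edgeR's quasi-likelihood test gave a false discovery rate (FDR) under 0.1 and the absolute log2 fold change was over 0.5. By this rule 9.38% of all tested genes were called higher in SH_tau and 8.42% lower. Of the 8 core genes tested, 2 were called higher, TGFB1 and SMAD3, and 3 were called lower, TGFBR1, SMAD2 and SMAD4. TGFB3, TGFBR2 and SMAD7 did not pass, and TGFB2 and TGFBR3 had too few reads for a test. Every SH_tau library lay above every SH_ctrl library for 3 of the 8, against 16.1% of all tested genes, and below for 3 of the 8, against 16.8% of all tested genes. The calls of TGFB1 and TGFBR1 held in 15 and 16 of 17 alternative settings, those of SMAD2, SMAD3 and SMAD4 in 7, 7 and 8. Among the 17, an FDR under 0.05 and no fold minimum reuse the main fit. Neither can turn a direction, and dropping the fold minimum cannot lose a call. Leaving out SH_ctrl 1 left 0 genes called higher and 0 called lower in the core by edgeR (2 higher and 3 lower at an unadjusted p below 0.05), and 179 higher and 71 lower among all tested genes, against 1573 and 1413 with all 6 libraries. An unadjusted p below 0.05 was common over all tested genes in edgeR. In either direction it was met by 4876 of 16778 with all 6 libraries. The counts were 3506 of 17028 without SH_ctrl 1 and 4090 of 16778 with the GC trend removed. Without SH_tau 1, SH_tau 2, SH_tau 3 or SH_ctrl 2, 1 core gene was called in each direction, and without SH_ctrl 3, 2 were called higher and 4 lower.

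**Figure D1:**
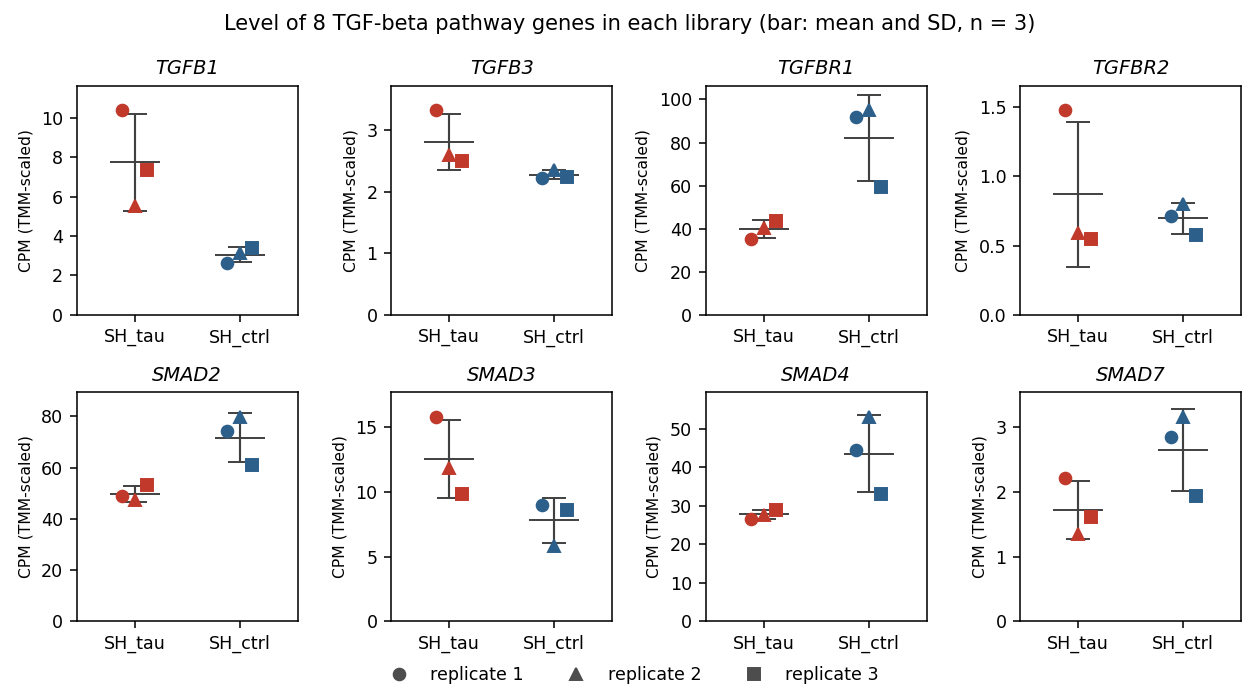
Level of the 8 tested genes in CPM after TMM scaling, with SH_tau on the left and SH_ctrl on the right of each panel; each symbol is a library and the bar gives the mean and SD of 3 libraries. TGFB1 lay at 5.50 to 10.4 CPM in SH_tau and 2.63 to 3.37 CPM in SH_ctrl, and TGFBR1 at 35.3 to 43.3 CPM in SH_tau and 59.2 to 94.9 CPM in SH_ctrl.

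The bases upstream of the start sites are shown for the 5 called genes, since these moved in opposite directions, with 250 bases before the first start that RefSeq lists for each gene on GRCh38.p14. They are written 5′ to 3′ on the strand of the gene, and capitals mark GGGCGG (the GC box that SP1 binds) and CAGAC (the SMAD box) on either strand. The windows are, for TGFB1, chr19:41353923-41354172 on the minus strand, for SMAD3, chr15:67065352-67065601 on the plus strand, for TGFBR1, chr9:99104863-99105112 on the plus strand, for SMAD2, chr18:47930873-47931122 on the minus strand, and for SMAD4, chr18:51029963-51030212 on the plus strand.
TGFB1: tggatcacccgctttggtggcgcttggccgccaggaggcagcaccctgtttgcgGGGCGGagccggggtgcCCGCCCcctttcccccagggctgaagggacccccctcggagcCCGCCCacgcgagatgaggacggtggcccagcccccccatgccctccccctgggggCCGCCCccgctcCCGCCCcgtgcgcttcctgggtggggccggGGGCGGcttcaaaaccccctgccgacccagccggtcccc
SMAD3: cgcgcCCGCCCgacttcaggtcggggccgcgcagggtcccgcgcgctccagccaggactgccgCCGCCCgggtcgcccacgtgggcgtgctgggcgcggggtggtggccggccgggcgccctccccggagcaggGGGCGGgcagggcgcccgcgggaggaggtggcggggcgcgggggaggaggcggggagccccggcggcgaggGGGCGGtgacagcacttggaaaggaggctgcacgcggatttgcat
TGFBR1: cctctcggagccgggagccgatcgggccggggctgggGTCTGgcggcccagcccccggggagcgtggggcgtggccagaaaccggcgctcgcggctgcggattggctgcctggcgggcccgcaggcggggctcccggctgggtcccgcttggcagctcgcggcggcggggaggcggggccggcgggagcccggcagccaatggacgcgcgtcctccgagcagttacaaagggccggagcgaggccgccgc
SMAD2: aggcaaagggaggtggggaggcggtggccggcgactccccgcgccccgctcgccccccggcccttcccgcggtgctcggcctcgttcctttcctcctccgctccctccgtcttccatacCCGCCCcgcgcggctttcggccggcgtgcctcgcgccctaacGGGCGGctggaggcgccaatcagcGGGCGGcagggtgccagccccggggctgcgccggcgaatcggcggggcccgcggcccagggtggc
SMAD4: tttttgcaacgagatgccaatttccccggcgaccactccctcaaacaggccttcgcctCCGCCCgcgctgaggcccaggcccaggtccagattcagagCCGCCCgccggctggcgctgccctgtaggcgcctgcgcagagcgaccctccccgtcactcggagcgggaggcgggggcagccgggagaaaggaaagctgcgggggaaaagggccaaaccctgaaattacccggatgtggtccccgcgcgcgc

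Both genes called higher had a window rich in GC boxes, with 6 matches to GGGCGG in TGFB1 and 4 in SMAD3, but SMAD2 with 3 and SMAD4 with 2 had them as well. TGFBR1 had 0 GC boxes and was the one of the 5 with the SMAD box, 1 match. GGGCGG occurred in 42.3% and CAGAC in 37.8% of 27305 promoter windows of the same length. The windows of TGFB2, TGFB3 and SMAD7, none of them called, held 2 SMAD boxes each. CCAAT, also searched on both strands and counted whether or not it shares bases with another match, had 2 matches in TGFBR1 and 1 each in SMAD2 and SMAD4, against matches in 33.0% of all windows. The GC content of the windows was 76.8% in TGFB1 and 80.8% in SMAD3, the genes called higher. It was 79.6% in TGFBR1, 78.4% in SMAD2 and 68.4% in SMAD4, the genes called lower. All 5 lay above the median of 58.0% over all windows, and the ranges of the genes called higher and lower overlapped. Whether promoter GC content bears on the calls was not tested. RefSeq lists 8 windows for TGFBR1, 5 for SMAD3 and 2 for SMAD2, and which start these cells used was not tested.

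Among the ligand genes, TGFB1 was the one that passed the test. TGFB1 encodes the most widely expressed ligand and is annotated on the minus strand of chromosome 19 (GRCh38, 41301587 to 41353922), as ENSG00000105329. It had 10.4, 5.50 and 7.33 CPM in SH_tau, against 2.63, 3.14 and 3.37 CPM in SH_ctrl, from 131 to 309 reads in SH_tau and 85 to 133 reads in SH_ctrl. The groups did not overlap, and SH_tau 1 was the highest library. The mean was 7.74 ± 2.46 CPM in SH_tau and 3.04 ± 0.380 CPM in SH_ctrl (SD, n = 3), a 2.54-fold difference (log2 fold change 1.35, SE 0.26, 95% confidence interval 0.78 to 1.91, FDR = 0.0142). Without SH_ctrl 1 the log2 fold change was 1.25 and the call was lost (FDR = 0.108). TGFB1 has exons of 62.1% GC, and with the trend of fold change on GC content removed within each library its log2 fold change was 0.99 and remained past the thresholds (FDR = 0.0457). A share of 6.59% of its exon bases is also covered by exons of genes on the opposite strand, and whether the authors' counting used strand is not given in the sources used here.

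TGFB3, a ligand best known from palate and lung development, did not pass the test. It lies on chromosome 14 at 75958097 to 75983011 on the minus strand (ENSG00000119699) and had 3.32, 2.61 and 2.49 CPM in SH_tau, against 2.23, 2.36 and 2.25 CPM in SH_ctrl. Each SH_tau library lay above each SH_ctrl library, by a small margin. The log2 fold change was 0.30 (SE 0.24, 95% confidence interval -0.23 to 0.83, FDR = 0.433), and its sign turned with scaling to total counts, to -0.02.

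TGFB2, a ligand with broad roles in embryonic development, was close to absent. It lies on chromosome 1 at 218345336 to 218444619 on the plus strand (ENSG00000092969) and had 2, 0 and 2 reads in SH_tau and 2, 2 and 2 reads in SH_ctrl. A count of 0 allows up to 3 reads, which is 0.126 CPM in SH_tau 2. No difference between the groups was detectable at this depth, and 34.2% of its exon bases are shared with exons of other genes.

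The share of TGFB1 among the RPKM values of the 3 ligand genes was 82.3, 76.2 and 81.3% in SH_tau and 63.6, 66.4 and 68.9% in SH_ctrl. RPKM, the deposited read counts divided by library total and gene length, was used wherever genes were compared with each other. TGFB1 over TGFB3 within each library gave a log2 ratio of 2.03 ± 0.30 in SH_tau and 1.01 ± 0.17 in SH_ctrl (SD, n = 3), and the groups did not overlap (difference 1.01, two-sided exact permutation p = 0.1, which is the smallest that 3 against 3 libraries can give). This ratio took the place of TGFB1 over TGFB2 after the data were seen, since a library had no TGFB2 read. The GC trend was not removed from the ratio. In the fit with that trend removed the log2 fold changes were 0.99 for TGFB1 and 0.26 for TGFB3, against 1.35 and 0.30.

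Among the receptor genes, TGFBR1 was lower in SH_tau and had the highest level of the 10 genes per length. TGFBR1 encodes the type I receptor kinase that phosphorylates SMAD2 and SMAD3 and lies on chromosome 9 at 99104038 to 99154192 on the plus strand (ENSG00000106799). It had 35.3, 40.5 and 43.3 CPM in SH_tau, against 92.1, 94.9 and 59.2 CPM in SH_ctrl, from 964 to 1181 reads in SH_tau and 1738 to 4025 reads in SH_ctrl. The groups did not overlap, and SH_ctrl 3 was the SH_ctrl library nearest to SH_tau. The mean was 39.7 ± 4.05 CPM in SH_tau and 82.1 ± 19.9 CPM in SH_ctrl (SD, n = 3), which is 0.484 times the SH_ctrl level (log2 fold change -1.05, SE 0.20, 95% confidence interval -1.49 to -0.60, FDR = 0.0148). Without SH_ctrl 1 the log2 fold change was -0.96 and the call was lost (FDR = 0.106). TGFBR1 has exons of 39.1% GC, at the end of the range where the median gene was lower in SH_tau, and with the GC trend removed it was still called (log2 fold change -0.74, FDR = 0.0312).

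TGFBR2, the type II receptor that binds the ligand, was measured at a low level and did not pass the test. It lies on chromosome 3 at 30606601 to 30694142 on the plus strand (ENSG00000163513) and had 1.48, 0.588 and 0.550 CPM in SH_tau, against 0.711, 0.802 and 0.579 CPM in SH_ctrl, from 14 to 44 reads. The groups overlapped, and SH_tau 1 stood above the other 5 libraries. The log2 fold change was 0.33 (SE 0.41, 95% confidence interval -0.57 to 1.23, FDR = 0.627), and without SH_tau 1 it turned to -0.28. TGFBR3 lies on chromosome 1 at 91680343 to 91906335 on the minus strand (ENSG00000069702) and had 0 reads in all 6 libraries, which allows up to 0.101 to 0.126 CPM in SH_tau and up to 0.0708 to 0.102 CPM in SH_ctrl. These limits, of 3 reads per library, cover counting error only.

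TGFBR1 exceeded TGFBR2 in RPKM in every library, and by less in SH_tau. The log2 ratio of TGFBR1 over TGFBR2 was 4.04, 5.56 and 5.76 in SH_tau and 6.48, 6.35 and 6.13 in SH_ctrl. The difference of the means was -1.20 (two-sided exact permutation p = 0.1). SH_tau 1, the library with the most TGFBR2 reads, was the lowest, and without it the difference was -0.66. In the fit with the GC trend removed the log2 fold changes were -0.74 for TGFBR1 and 0.45 for TGFBR2, against -1.05 and 0.33.

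Among the SMADs, SMAD3 was higher in SH_tau and SMAD2 and SMAD4 were lower, each by less than 2-fold. SMAD3, which binds DNA and carries much of the transcriptional response to TGF-β, lies on chromosome 15 at 67063763 to 67195173 on the plus strand (ENSG00000166949). It had 15.8, 11.8 and 9.86 CPM in SH_tau, against 8.99, 5.83 and 8.61 CPM in SH_ctrl. The groups did not overlap, but the lowest SH_tau library was close to the highest SH_ctrl library. The mean was 12.5 ± 3.01 CPM in SH_tau and 7.81 ± 1.73 CPM in SH_ctrl (SD, n = 3), a 1.60-fold difference (log2 fold change 0.68, SE 0.23, 95% confidence interval 0.17 to 1.19, FDR = 0.0830). The call was lost with the GC trend removed (log2 fold change 0.60, FDR = 0.136), with total-count scaling (0.41, FDR = 0.349), and without SH_tau 1 (0.50), SH_tau 2 (0.71), SH_tau 3 (0.84), SH_ctrl 1 (0.79) or SH_ctrl 2 (0.50), with FDRs of 0.101 to 0.212 over those 5 fits.

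SMAD2 is the other SMAD that TGFBR1 activates and its main isoform does not bind DNA by itself. It lies on chromosome 18 at 47808957 to 47931146 on the minus strand (ENSG00000175387) and had 48.8, 47.4 and 53.2 CPM in SH_tau, against 74.3, 79.8 and 61.1 CPM in SH_ctrl. The groups did not overlap. The mean was 49.8 ± 3.05 CPM in SH_tau and 71.7 ± 9.61 CPM in SH_ctrl (SD, n = 3), with a log2 fold change of -0.53 (SE 0.17, 95% confidence interval -0.90 to -0.16, FDR = 0.0699), which is just past the fold threshold. The exons of SMAD2 have 40.7% GC, and with the GC trend removed the value was -0.28 and the call was lost (FDR = 0.243), as it was without SH_tau 1 (-0.49), SH_tau 2 (-0.51), SH_tau 3 (-0.56), SH_ctrl 1 (-0.51) or SH_ctrl 2 (-0.45).

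SMAD4, the partner that SMAD2 and SMAD3 share with the SMADs of the BMP branch, lies on chromosome 18 at 51028528 to 51085045 on the plus strand (ENSG00000141646). It had 26.6, 27.6 and 29.0 CPM in SH_tau, against 44.4, 53.0 and 33.0 CPM in SH_ctrl. The 3 SH_tau libraries were close together and below all SH_ctrl libraries, which spread more widely. The mean was 27.7 ± 1.23 CPM in SH_tau and 43.5 ± 10.04 CPM in SH_ctrl (SD, n = 3), with a log2 fold change of -0.65 (SE 0.19, 95% confidence interval -1.06 to -0.23, FDR = 0.0518). Its exons have 37.5% GC, the lowest of the 10 genes, and the call was lost with the GC trend removed (-0.30, FDR = 0.253) and without SH_tau 1 (-0.60), SH_tau 2 (-0.66), SH_tau 3 (-0.66), SH_ctrl 1 (-0.64) or SH_ctrl 2 (-0.48). A share of 4.93% of the exon bases of SMAD4 is covered by exons of another gene on the same strand.

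SMAD7, the inhibitory SMAD, did not pass the test. It lies on chromosome 18 at 48919853 to 48950965 on the minus strand (ENSG00000101665) and had 2.22, 1.34 and 1.61 CPM in SH_tau, against 2.84, 3.16 and 1.94 CPM in SH_ctrl. SH_tau 1 lay above SH_ctrl 3, so the groups overlapped. The log2 fold change was -0.62 (SE 0.29, 95% confidence interval -1.26 to 0.02, FDR = 0.186), and without SH_ctrl 3 it was -0.80 and was called (FDR = 0.0724). Unlike SMAD2 and SMAD4, SMAD7 has exons of 56.1% GC, and the value with the GC trend removed was -0.82 (FDR = 0.123).

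The balance between SMADs within a library does not depend on the scaling between libraries. It can still depend on the GC trend, which was not removed from any of the 4 ratios. SMAD3 has exons of 52.6% GC, SMAD2 of 40.7% and SMAD7 of 56.1%. In the fit with the GC trend removed the log2 fold changes were 0.60 for SMAD3, -0.28 for SMAD2 and -0.82 for SMAD7, against 0.68, -0.53 and -0.62. SMAD3 over SMAD2 had log2 ratios of RPKM of 0.37, -0.0021 and -0.43 in SH_tau, against -1.05, -1.78 and -0.83 in SH_ctrl. The level of this ratio depends on the gene lengths in the RPKM, 9113 bases for SMAD3 and 36366 bases for SMAD2, and by CPM SMAD3 lay below SMAD2 in every library (means of 12.5 and 49.8 CPM in SH_tau and of 7.81 and 71.7 CPM in SH_ctrl). The lengths drop out of the difference between the groups. The difference of the means was 1.20 (two-sided exact permutation p = 0.1), and SMAD3 made up 30.4, 25.6 and 20.8% of the RPKM of the 4 SMADs in SH_tau and 13.7, 8.27 and 16.7% in SH_ctrl. SMAD7 over SMAD3, the inhibitor over the activator, had log2 ratios of -1.53, -1.84 and -1.31 in SH_tau, against -0.36, 0.42 and -0.85 in SH_ctrl. The groups did not overlap, and the difference of the means was -1.30 (two-sided exact permutation p = 0.1). Each of the 4 ratios tested had an adjusted p of 0.1.

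**Figure D2:**
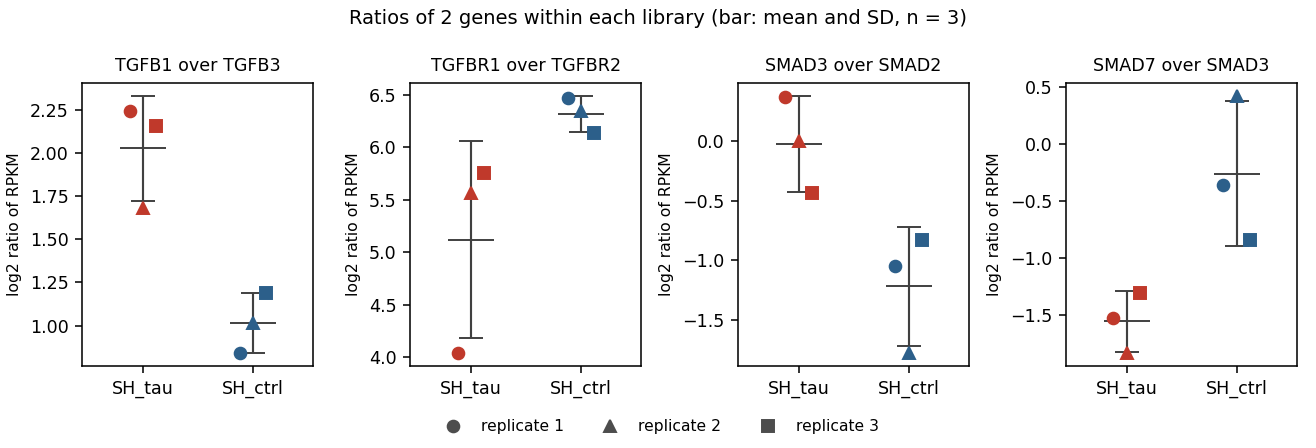
Log2 ratio of the RPKM values of 2 genes within each library, with SH_tau on the left and SH_ctrl on the right; each symbol is a library and the bar gives the mean and SD of 3 libraries. In all 4 panels the SH_tau and SH_ctrl libraries do not overlap, and the SH_tau mean is higher for TGFB1 over TGFB3 and SMAD3 over SMAD2 and lower for TGFBR1 over TGFBR2 and SMAD7 over SMAD3.

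The order of the 10 genes by RPKM differed between the groups below its top place. In SH_tau the means ran from TGFBR1 (5.16 RPKM) through TGFB1 (2.22), SMAD4 (1.89), SMAD3 (1.26), SMAD2 (1.23), TGFB3 (0.521), SMAD7 (0.432) and TGFBR2 (0.177) to TGFB2 (0.00872) and TGFBR3 (0). In SH_ctrl they ran from TGFBR1 (13.8 RPKM) through SMAD4 (3.82), SMAD2 (2.26), TGFB1 (1.07), SMAD3 (0.949), SMAD7 (0.826), TGFB3 (0.527) and TGFBR2 (0.170) to TGFB2 (0.0128) and TGFBR3 (0). The place of TGFB1 above SMAD4 in SH_tau rested on SH_tau 1, without which the SH_tau means were 1.63 RPKM for TGFB1 and 1.76 RPKM for SMAD4, and that of SMAD3 above SMAD2 did as well (0.965 RPKM for SMAD3 and 1.13 RPKM for SMAD2 without it). By RPKM the mean of TGFB1 was above that of SMAD2 in SH_tau and below it in SH_ctrl, with all libraries and with any 1 left out. This crossing rests on the lengths in the RPKM, 3238 bases for TGFB1 and 36366 bases for SMAD2. By CPM the mean of TGFB1 lay below that of SMAD2 in both groups (7.74 and 49.8 CPM in SH_tau, 3.04 and 71.7 CPM in SH_ctrl). In SH_tau the CPM mean of SMAD2 was also above that of TGFBR1 (39.7 CPM). In SH_tau the library ranges of TGFB1 and SMAD4 overlapped, as did those of SMAD4 and SMAD3, of SMAD3 and SMAD2, of TGFB3 and SMAD7 and of SMAD7 and TGFBR2, while that of SMAD2 lay above TGFB3. In SH_ctrl the ranges of SMAD4 and SMAD2 overlapped, as did those of TGFB1 and SMAD3, of SMAD3 and SMAD7 and of SMAD7 and TGFB3, while TGFBR1 stood apart from all others in both groups. RPKM here divides by all reads, the mitochondrial ones included. RPKM levels within a group can be compared between genes only on the lengths used, and those between groups follow total-count scaling. On that scaling the median log2 fold change of all tested genes was -0.36, with 559 genes called higher and 2886 lower, and TGFB1 was called higher and TGFBR1, SMAD2 and SMAD4 lower.

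The genes around the core were taken from 8 lists by role, with 131 genes of which 96 were tested. Of these, 20 (20.8%) were called higher in SH_tau and 15 (15.6%) lower, beside 9.38% and 8.42% of all tested genes. Without SH_ctrl 1 the counts were 3 higher and 1 lower, and with the GC trend removed they were 16 and 4. Over the other libraries left out in turn, 12 to 27 were called higher and 3 to 23 lower, with 12 called higher without SH_tau 1, and 8, 3, 3, 7 and 23 called lower without SH_tau 1, SH_tau 2, SH_tau 3, SH_ctrl 2 and SH_ctrl 3 in that order.

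Target genes of TGF-β and BMP signalling had the most calls of the 8 lists by count, though not by share. All 8 genes called in this list were higher in SH_tau. Of 20 tested, edgeR called 8 (40%) higher and 0 lower (8 and 0 with DESeq2), beside 9.38% and 8.42% of all tested genes. In edgeR 10 had an unadjusted p below 0.05, beside 4876 of all 16778 tested genes. The median log2 fold change was 0.50, beside -0.03 over all tested genes. The 8 were CCN1, TGFBI, ACTA2, COL1A1, ID4, CDKN1A, SNAI1 and TAGLN, of which the last 5 are named after their values were seen. CCN1, a matrix-associated signalling protein, averaged 13.9 ± 1.46 CPM in SH_tau and 3.88 ± 1.65 CPM in SH_ctrl (SD, n = 3; log2 fold change 1.86, SE 0.28, FDR = 0.00712). ACTA2, smooth muscle actin, had 11.9, 8.91 and 9.02 CPM in SH_tau, against 3.25, 4.34 and 4.36 CPM in SH_ctrl (log2 fold change 1.32, SE 0.22, FDR = 0.00892). The groups of both were well apart, and both calls held in all 17 alternatives. TGFBI, an extracellular matrix protein named for its induction by TGF-β, was low, with 0.739, 0.840 and 0.660 CPM in SH_tau, against 0.216, 0.0708 and 0.272 CPM in SH_ctrl (log2 fold change 2.04, SE 0.46, FDR = 0.0232), and without SH_ctrl 1 its FDR was 0.118. COL1A1, a chain of type I collagen, had 4.55 to 6.11 CPM in SH_tau and 0.755 to 2.18 CPM in SH_ctrl, whereas its partner chain COL1A2 had 0 or 1 read per library. CDKN1A, the cell cycle inhibitor p21, had 29.0 to 79.8 CPM in SH_tau and 15.9 to 19.9 CPM in SH_ctrl. Without SH_ctrl 1 neither passed (FDR = 0.101 for COL1A1 and 0.129 for CDKN1A).

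ID1 and CCN2, also well-known targets, gave no call with all 6 libraries. ID1, a BMP target that inhibits differentiation factors, had 23.1, 33.1 and 40.7 CPM in SH_tau, against 22.5, 13.3 and 41.4 CPM in SH_ctrl (log2 fold change 0.33, SE 0.34, FDR = 0.541). The sign of ID1 turned with the mitochondrial share as a covariate, to -0.46, while without SH_ctrl 3, its highest library, ID1 was called higher (0.85, FDR = 0.0514). CCN2, a matricellular protein that TGF-β induces, had 0 reads in all 6 libraries, and 11.9% of its exon bases are shared with an exon on the opposite strand. With the GC trend removed edgeR called 8 targets higher and 0 lower (9 and 0 at an unadjusted p below 0.05), and without SH_ctrl 1, 3 were called higher and 0 lower (8 and 1 at an unadjusted p below 0.05). Without SH_ctrl 3, 11 were called higher and 1 lower, with TIMP1 (0.81), JUNB (0.77) and MYC (-1.03) named after their values were seen. SKIL and SMAD7, which TGF-β also induces, were not placed in this list. With all 6 libraries SKIL was called lower (log2 fold change -0.92) and SMAD7 was not called (-0.62).

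**Figure D3:**
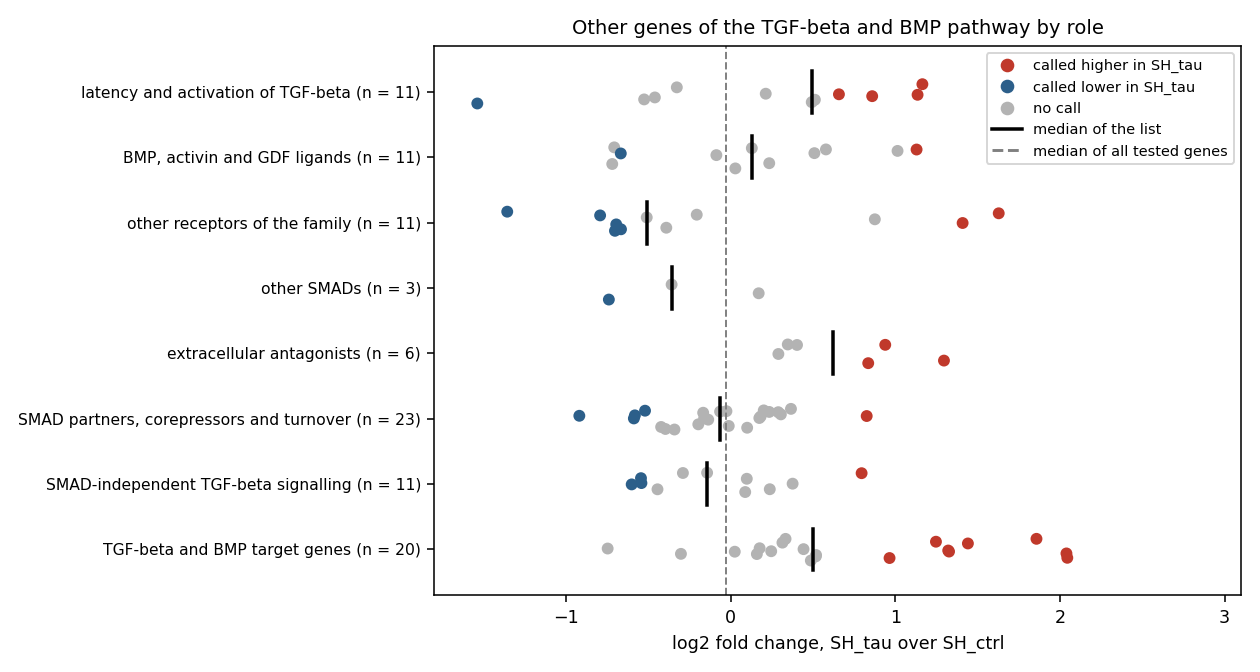
Log2 fold change of SH_tau over SH_ctrl for the tested genes of the 8 lists around the core, with genes called higher in SH_tau in red, genes called lower in blue and genes with no call in grey; the black bars are list medians and the dashed line is the median of all tested genes, -0.03. The target genes and extracellular antagonists had medians of 0.50 and 0.62, and the other receptors of the family a median of -0.51.

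The other receptors and co-receptors of the family fell on both sides. Of 11 tested, 2 (18.2%) were called higher and 5 (45.5%) lower, beside 9.38% and 8.42% of all tested genes. The median log2 fold change was -0.51. BMPR1B, a type I receptor for BMPs, had 11.0, 9.71 and 11.1 CPM in SH_tau, against 28.2, 35.1 and 18.4 CPM in SH_ctrl (log2 fold change -1.36, SE 0.23, FDR = 0.00892), and its call held in all 17 alternatives. BMPR1A, its close relative, had 20.5, 21.1 and 22.1 CPM in SH_tau, against 39.9, 42.0 and 28.5 CPM in SH_ctrl (log2 fold change -0.79, SE 0.18, FDR = 0.0249), and without SH_ctrl 1 its FDR was 0.130. The type II receptors BMPR2 and ACVR2B and the co-receptor RGMB were the other 3 called lower, named after their values were seen. The calls in the other direction were of co-receptors. ENG, endoglin, had 3.09, 1.97 and 2.71 CPM in SH_tau, against 0.773, 0.519 and 1.70 CPM in SH_ctrl (log2 fold change 1.41, SE 0.40, FDR = 0.0465). RGMA, a BMP co-receptor that guides axons, had a log2 fold change of 1.63 (SE 0.45, FDR = 0.0426). Its level was low, with 2.05, 1.34 and 0.953 CPM in SH_tau, against 0.216, 0.425 and 0.783 CPM in SH_ctrl (7 to 23 reads). ENG lost its call without SH_tau 1, SH_tau 3 or SH_ctrl 1 (FDRs 0.124, 0.116 and 0.193), and RGMA without SH_tau 1 or SH_ctrl 1 (FDRs 0.137 and 0.176). With the GC trend removed the list held 2 genes called higher and 3 lower, and without SH_ctrl 1, 0 higher and 1 lower (2 and 5 at an unadjusted p below 0.05 in edgeR). With the mitochondrial share as a covariate the list held 1 called higher and 1 lower (FDR = 0.118 for BMPR1A and 0.160 for ENG). Without SH_tau 1 it held 0 called higher and 4 lower, without SH_tau 2, 2 and 2, without SH_tau 3, 1 and 2, and without SH_ctrl 2, 2 and 3.

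The list of TGF-β latency and activation had 11 tested genes, with 4 (36.4%) called higher and 1 (9.09%) lower, beside 9.38% and 8.42% of all tested genes. The median log2 fold change was 0.49. LTBP2, a matrix protein of the latent TGF-β binding protein family, had 7.96, 9.20 and 7.92 CPM in SH_tau, against 3.52, 2.81 and 4.90 CPM in SH_ctrl (log2 fold change 1.16, SE 0.24, FDR = 0.0172). LTBP4, of the same family, had 99.5, 152 and 109 CPM in SH_tau, against 54.4, 33.7 and 76.3 CPM in SH_ctrl (log2 fold change 1.13, SE 0.27, FDR = 0.0281). FURIN, the protease that cleaves the TGF-β precursor, and ITGB5, an integrin chain, were the other 2, named after their values were seen. ITGB8, the chain of an integrin that activates latent TGF-β, was called lower, but its groups overlapped, with 1.34, 0.966 and 0.770 CPM in SH_tau, against 5.01, 3.09 and 0.885 CPM in SH_ctrl (log2 fold change -1.54, SE 0.50, FDR = 0.0701), and its call was lost without SH_tau 1, SH_tau 2 or SH_tau 3 (FDRs 0.118, 0.148 and 0.194) and without SH_ctrl 1, where the value was -0.97 (FDR = 0.291). THBS1, another activator, had 0 reads in all 6 libraries. With the GC trend removed 2 genes of the list were called higher and 0 lower by edgeR (4 and 1 at an unadjusted p below 0.05). Without SH_ctrl 1 none was called in either direction (4 and 0 at an unadjusted p below 0.05), with LTBP2 at an FDR of 0.115 and LTBP4 at 0.142. Without SH_ctrl 3, 5 were called higher and 4 lower, with LTBP3 (log2 fold change 0.76), ITGAV (-0.64), ITGB1 (-0.72) and FBN1 (-0.70) added after their values were seen.

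Of 6 extracellular antagonists tested, 3 (50%) were called higher and 0 lower in edgeR and DESeq2, beside 9.38% and 8.42% of all tested genes in edgeR. At an unadjusted p below 0.05 in edgeR there were 3 higher and 0 lower, and the median log2 fold change was 0.62. CHRD, chordin, which binds BMPs, had 9.33, 10.6 and 10.9 CPM in SH_tau, against 4.20, 2.26 and 6.16 CPM in SH_ctrl (log2 fold change 1.29, SE 0.30, FDR = 0.0254). FSTL3, a binder of activin, had 22.7, 18.9 and 19.1 CPM in SH_tau, against 9.43, 7.26 and 15.05 CPM in SH_ctrl (log2 fold change 0.94, SE 0.25, FDR = 0.0366). NBL1, the third, was carried by SH_tau 1, at 110 CPM against 45.0 and 44.7 CPM in the other SH_tau libraries and 33.3 to 39.7 CPM in SH_ctrl, and without SH_tau 1 its log2 fold change was 0.29 (FDR = 0.281). NBL1 also lost its call without SH_ctrl 1, SH_ctrl 2 or SH_ctrl 3 (FDRs 0.233, 0.133 and 0.147). With the GC trend removed 2 of the list were called higher, 1 without SH_tau 1 (FSTL3 at an FDR of 0.10002), and none without SH_ctrl 1, where CHRD had an FDR of 0.132 and FSTL3 of 0.170, with 3 higher and 0 lower at an unadjusted p below 0.05. Of the BMP, activin and GDF ligands 11 were tested, with GDF7 called higher (log2 fold change 1.13, SE 0.32, FDR = 0.0473) and GDF10 lower (-0.67, SE 0.19, FDR = 0.0458). This was 9.09% of the list in each direction, beside 9.38% and 8.42% of all tested genes. Without SH_ctrl 1 neither GDF7 nor GDF10 was called (FDRs 0.180 and 0.165), nor with the mitochondrial share as a covariate (FDRs 0.1002 and 0.148). GDF7 also lost its call without SH_tau 1, SH_tau 2 or SH_ctrl 2 (FDRs 0.141, 0.112 and 0.101), and GDF10 without SH_tau 2 (FDR = 0.187). Without SH_ctrl 3, 3 of 13 ligands were called higher and 2 lower, with AMH (0.80), INHA (1.42) and INHBA (-0.88) added after their values were seen, and INHBA was also called lower without SH_tau 1 (-1.15).

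Inside the cell, SMAD5, a mediator of BMP receptors, had 28.9, 26.3 and 26.4 CPM in SH_tau, against 50.9, 54.1 and 31.4 CPM in SH_ctrl and was called lower (log2 fold change -0.74, SE 0.21, FDR = 0.0451). The call was lost with the GC trend removed (-0.45, FDR = 0.141) and without SH_tau 2, SH_tau 3, SH_ctrl 1 or SH_ctrl 2 (FDRs 0.127, 0.149, 0.183 and 0.109). SMAD6, the other inhibitory SMAD, had 13, 6 and 13 reads in SH_tau, against 4, 1 and 6 reads in SH_ctrl and did not reach the minimum for a test with all 6 libraries. Without SH_ctrl 3 it was tested and called higher (log2 fold change 2.46, FDR = 0.0319), and SMAD9, a mediator of BMP receptors named after its values were seen, was called lower (-0.51, FDR = 0.0559). The direction of SMAD6 on the read counts was the opposite of that of SMAD7, which was not called with all 6 libraries.

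Of 23 tested SMAD partners, corepressors and turnover genes 1 (4.35%) was called higher and 4 (17.4%) lower, beside 9.38% and 8.42% of all tested genes. The median log2 fold change was -0.07. SKIL, a corepressor of SMADs that TGF-β induces, had 18.2, 16.8 and 16.9 CPM in SH_tau, against 45.5, 29.1 and 23.7 CPM in SH_ctrl (log2 fold change -0.92, SE 0.23, FDR = 0.0295), and without SH_ctrl 1, its highest library, the value was -0.62 (FDR = 0.145), while without SH_tau 3 its FDR was 0.103. Its relative SKI had 22.2 to 26.4 CPM in SH_tau and 21.5 to 23.0 CPM in SH_ctrl (log2 fold change 0.10, FDR = 0.713; -0.22 with total-count scaling and -0.25 with the GC trend removed). SMURF2, a ubiquitin ligase that acts on the receptor with SMAD7, did not pass (log2 fold change -0.34, SE 0.17, FDR = 0.194). TGIF2, a repressor, was called higher (0.83, SE 0.26, FDR = 0.0612), and STRAP, a binder of SMAD7 and the receptor, lower (-0.59, SE 0.20, FDR = 0.0764), with TRIM33 and PPM1A as the other 2 called lower, named after their values were seen. With the GC trend removed edgeR called none of the 23 in either direction (2 higher and 3 lower at an unadjusted p below 0.05), and TGIF2 had an FDR of 0.113, SKIL of 0.101 and STRAP of 0.196. TGIF2 lost its call without SH_tau 1, SH_tau 2 or SH_ctrl 1 (FDRs 0.165, 0.113 and 0.216), and STRAP with any library but SH_ctrl 3 left out (FDRs 0.127 to 0.183). With the mitochondrial share as a covariate 1 was called higher and 3 lower, and STRAP lost its call (FDR = 0.148). Without SH_tau 1, SH_tau 2, SH_tau 3, SH_ctrl 1 and SH_ctrl 2 the list held 1, 1, 0, 0 and 2 genes called lower, in that order.

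Of 11 genes of SMAD-independent signalling 1 (9.09%) was called higher and 3 (27.3%) lower, beside 9.38% and 8.42% of all tested genes. SHC1, the adaptor that links receptors to the MAP kinase cascade, had 310, 287 and 251 CPM in SH_tau, against 169, 160 and 160 CPM in SH_ctrl (log2 fold change 0.79, SE 0.17, FDR = 0.0202), and its groups were far apart. Its call was lost without SH_ctrl 1 (0.82, FDR = 0.115) and with total-count scaling (0.47, FDR = 0.211). TAB2 (log2 fold change -0.60, SE 0.20, FDR = 0.0785), an adaptor of the kinase TAK1, and ROCK1 (-0.54, SE 0.19, FDR = 0.0897), an effector of RHOA, were called lower, as was MAP3K7, which encodes TAK1 and is named after its values were seen. These 3 calls were lost with the GC trend removed, where edgeR called 1 gene higher and 0 lower (1 and 1 at an unadjusted p below 0.05). TAB2 and ROCK1 also lost their calls with any library but SH_ctrl 3 left out, with FDRs of 0.148 to 0.244 for TAB2 and 0.148 to 0.289 for ROCK1. Without SH_ctrl 1 none of the 11 was called (1 higher and 1 lower at an unadjusted p below 0.05).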

How the data were processed

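RNA was measured by poly(A)-selected single-end sequencing in 3 libraries labelled SH_tau and 3 labelled SH_ctrl. Per the labels and the methods, base calls came from bcl2fastq 1.8.4 and alignments to GRCh38 from TopHat2 2.1.0. Reads were then counted per gene by featureCounts 1.5.0, and the deposited count table holds these whole numbers. To obtain RPKM, the authors divided each gene's count by library total and, per the methods, transcript length. The lengths recovered from the RPKM were 36366 bases for SMAD2 and 3238 for TGFB1. These are close to all annotated exons of each gene merged (36426 and 3264 bases in GENCODE 44), while SMAD4 had 13123 against 19606. The labels and the methods name different directional kits, and the strand setting of the counting is not given in the sources used here. Here edgeR 4.0.16 in R 4.3.3 was run on the counts with TMM scaling and its filter for low counts, and the quasi-likelihood F test compared the 2 groups, with p-values of the 16778 tested genes adjusted after Benjamini and Hochberg. CPM are TMM-scaled. Ratios of RPKM were compared by an exact permutation test over the libraries. GC content, positions and shared exon bases come from GENCODE 44, and promoter windows from RefSeq (GRCh38.p14), which matched all 10 genes. Alternatives were DESeq2 1.42.0, limma-voom (limma 3.58.1), other scalings, no low-count filter, other thresholds, the replicate number or mitochondrial share in the model, the GC trend removed by lowess (span 0.3), and each library left out. The edgeR, DESeq2, limma-voom and GC-trend fits were run on simulated counts, which held no GC trend, mitochondrial shift or outlying library. The ratio test, the replicate block and the mitochondrial covariate were not tried on simulated counts. The core genes, lists and alternatives were chosen with earlier results of these data known. Named are the core genes, MAPT, up to 2 called genes with the smallest p in each direction of each list, and ENG, SKI, SKIL, SMURF2, TGFBI, ITGB8, SMAD6 and ID1; others are marked where named, and 1 gene that this rule names is not reported here. Mesenchymal neuroblastoma markers had 6 of 8 genes tested and 0 called in edgeR, with 2 at an unadjusted p below 0.05, PRRX1 at 0 reads, and sums of 543 to 569 CPM in SH_tau and 629 to 638 CPM in SH_ctrl. Of the noradrenergic markers 0 were called higher and 2 lower, DBH among them. Replicates of a group differed by more than sampling noise. The deposited RPM values, brain data and immunoassays were not used here.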

Additional observations from a re-analysis of the deposited data

How the results depend on the processing

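Among all tested genes, 1573 were called higher in SH_tau and 1413 lower. The counts were 559 and 2886 with total-count scaling, 899 and 716 at an FDR under 0.05, 486 and 219 with the GC trend removed and the replicate block, and 721 and 601 where the mitochondrial share was a covariate. The replicate block alone gave 1286 and 925, and removal of the GC trend alone 1138 and 715. Leaving out 1 library gave 179 to 2603 higher and 71 to 2541 lower, lowest without SH_ctrl 1 and highest without SH_ctrl 3.

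In the TGF-β core, with 2 called higher and 3 lower, total-count scaling left 1 higher, an FDR under 0.05 left 1 and 1, the GC trend removed 1 and 1, the GC trend removed with the replicate block 0 and 1 (TGFB1 log2 fold change 0.96, FDR = 0.117), and the mitochondrial share 1 and 1. With the replicate block alone 2 and 2 were called. Leaving out 1 library gave 0 to 2 higher and 0 to 4 lower. Of the 20 genes called higher and 15 called lower in the surrounding lists, total-count scaling gave 9 higher and the GC trend removed with the replicate block 7. An FDR under 0.05 gave 7 lower, the replicate block 9, the GC trend removed 4, the GC trend removed with the replicate block 2 and the mitochondrial share 7. Leaving out 1 library gave 3 to 27 higher and 1 to 23 lower. The cause was not tested.

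The direction turned for TGFB3 with total-count scaling (-0.018), for TGFBR2 without SH_tau 1 (-0.28, against up to 0.59 without SH_tau 3), for SKI with total-count scaling (-0.22), the GC trend removed (-0.25) and that with the replicate block (-0.24), and for ID1 (-0.46) with the mitochondrial share. Over the 8 tested core genes and 17 alternatives, 101 fold changes kept their direction and side of the thresholds, 32 kept the direction but lost the call, 1 gained a call (SMAD7) and 2 turned. These include the threshold settings, an FDR under 0.05 and no fold minimum, which reuse the main fit and cannot turn a direction. The 4 ratios kept their direction with each library left out in turn. Taking them from the read counts gives the same group differences by construction, because library totals and gene lengths drop out. The ratio of TGFB1 over TGFB2 could not be computed. Same-numbered libraries had correlations of deviations of -0.17, -0.52 and 0.18, and those with different numbers -0.39 to 0.48. Whether the replicate numbers pair the libraries is not stated in the sources used here, and these values cannot decide it. With DESeq2 and limma-voom the core counts stayed at 2 and 3. Depth limits TGFB2, TGFBR2, TGFBR3 and SMAD6, with 0 to 44 reads per library. Some called genes were low as well, with 7 to 61 reads for RGMA and 21 to 162 for ITGB8. TGFBI had 0.0708 CPM in SH_ctrl 2, the level of 3 reads in that library.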
